A study of Mus musculus with 10 samples.

Results

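The genes described here carry out or regulate glycolysis, the release of lactate and the making and breakdown of glycogen. They are 34 genes named by symbol. Of these, 30 had at least 1 probe, 52 probes in all, among the 19057 genes on the array. The other 4, Hk2, Gpi1, Eno1 and Pfkfb1, were not analysed here. The arrays measured RNA from 2 mouse lines: 3T3-L1 cells, fibroblast-like preadipocytes of embryonic origin that store fat once differentiated and were at day 8 of differentiation, and RAW 264.7 cells, a macrophage line. There were 3 arrays of bilayer adipocytes, 3 of monolayer adipocytes, 2 of bilayer macrophages and 2 of monolayer macrophages, and these numbers limit the precision. For the bilayer, RAW 264.7 cells were left for 18 h to settle on an insert with a polycarbonate membrane (0.4 µm), and the insert then stood over the adipocyte dish for 24 h in fresh medium. In the monolayer each line was kept without the other, and the labels do not give its medium volume or insert, so these and the presence of the other line cannot be told apart. All adipocyte groups had received the same inducers (IBMX, dexamethasone and insulin), and no group carried a genetic change. The protocol in the labels pools 5 dishes into 1 sample. Nothing states that the pools came from separate differentiations, so the p-values measure the spread between these samples.

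Glycolysis takes up glucose through membrane carriers and splits it in the cytosol into pyruvate, with a small yield of ATP and no need for oxygen. Phosphofructokinase is its main controlled step, and lactate dehydrogenase with the monocarboxylate carriers lets the flow continue when pyruvate is not burned in mitochondria. In fat cells the pathway also supplies the glycerol backbone of stored fat, and in macrophages it is known to rise with inflammatory activation. Glycogen is a branched store of glucose that synthase builds and phosphorylase takes apart.

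The part of a promoter that many glycolytic genes are known to share is the core of the hypoxia response element, to which hypoxia-inducible factors bind. Promoter windows of 300 bases, 250 before to 50 after an annotated start, were read from RefSeq (GRCm38.p6) for 33 of the 34 genes, all but Slc2a3. The letters ACGTG or GCGTG, on either strand, were searched in each window, and CACGTG holds the first of these on both strands. They stood in at least 1 window of 27 of the 33 genes (81.8%) and of 46.7% of all 27025 genes in the table. A gene with more windows has more chances of a match. Counted by window, they stood in 37 of 51 (72.5%) and in 43.8% of all 32851 windows. The median GC content was 60.3% in the windows of the 33 genes and 52.7% in all windows, and the part of GC content in the difference was not tested. Among genes tested in adipocytes, the letters were present for 13 of 16 that rose in the bilayer and for 8 of 9 that did not pass, so most genes of either set held them. The windows shown are those of 4 genes that rose more in adipocytes than in macrophages (Ldha, Pgk1, Slc2a1 and Pgam1), of the gene with the largest rise (Eno2) and of the glycogen phosphorylase gene that rose in macrophages (Pygl). They lie at chr7:46845554-46845853 on the plus strand (Ldha), chrX:106186850-106187149 on the plus strand (Pgk1), chr4:119108495-119108794 on the plus strand (Slc2a1), chr19:41911621-41911920 on the plus strand (Pgam1), chr6:124769624-124769923 on the minus strand (Eno2) and chr12:70227634-70227933 on the minus strand (Pygl). Each is written 5′ to 3′ along its gene, and capitals mark the letters searched, as ACGTG or GCGTG and, for the other strand, CACGT or CACGC:
Ldha: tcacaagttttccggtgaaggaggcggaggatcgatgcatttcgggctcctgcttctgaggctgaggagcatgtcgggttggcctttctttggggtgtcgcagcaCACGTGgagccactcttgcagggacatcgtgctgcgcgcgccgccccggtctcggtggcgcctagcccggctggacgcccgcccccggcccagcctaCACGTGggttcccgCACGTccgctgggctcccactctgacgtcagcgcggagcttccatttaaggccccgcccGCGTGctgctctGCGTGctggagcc
Pgk1: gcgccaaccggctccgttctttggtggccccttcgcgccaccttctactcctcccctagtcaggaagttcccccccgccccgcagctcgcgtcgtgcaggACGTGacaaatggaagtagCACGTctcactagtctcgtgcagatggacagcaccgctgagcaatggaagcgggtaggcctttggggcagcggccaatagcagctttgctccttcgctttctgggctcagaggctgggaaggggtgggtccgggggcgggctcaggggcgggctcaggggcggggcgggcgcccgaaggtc
Slc2a1: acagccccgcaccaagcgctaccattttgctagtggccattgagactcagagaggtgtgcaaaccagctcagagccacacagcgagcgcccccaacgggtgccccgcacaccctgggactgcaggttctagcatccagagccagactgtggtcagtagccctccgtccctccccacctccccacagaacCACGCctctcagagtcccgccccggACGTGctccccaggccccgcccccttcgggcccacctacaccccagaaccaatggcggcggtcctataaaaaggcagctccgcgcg
Pgam1: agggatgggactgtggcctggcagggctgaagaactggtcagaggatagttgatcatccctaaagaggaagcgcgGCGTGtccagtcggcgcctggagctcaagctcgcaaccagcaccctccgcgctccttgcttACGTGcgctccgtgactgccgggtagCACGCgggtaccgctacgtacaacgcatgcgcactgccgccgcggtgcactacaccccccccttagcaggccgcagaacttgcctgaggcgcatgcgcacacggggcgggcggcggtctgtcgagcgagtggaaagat
Eno2: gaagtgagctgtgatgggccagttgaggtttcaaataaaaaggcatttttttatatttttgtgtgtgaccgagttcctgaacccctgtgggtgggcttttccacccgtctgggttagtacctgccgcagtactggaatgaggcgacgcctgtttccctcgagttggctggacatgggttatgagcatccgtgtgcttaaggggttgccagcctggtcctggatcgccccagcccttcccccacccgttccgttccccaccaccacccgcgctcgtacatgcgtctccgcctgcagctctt
Pygl: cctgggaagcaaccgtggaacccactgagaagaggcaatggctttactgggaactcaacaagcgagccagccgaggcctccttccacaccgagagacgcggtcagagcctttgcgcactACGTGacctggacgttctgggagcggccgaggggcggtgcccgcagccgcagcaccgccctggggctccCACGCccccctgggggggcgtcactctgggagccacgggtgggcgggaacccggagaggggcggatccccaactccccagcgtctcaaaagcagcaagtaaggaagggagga
The Ldha window shown held 7 matches, with CACGTG in it, and another Ldha window, not shown, held 2 without CACGTG. The Pgam1 window held 3. Those of Pgk1, Slc2a1 and Pygl held 2 each, and the Eno2 window held 0, which says only that these letters were not in that window.

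Values are the deposited normalized intensities. Changes are differences of log2(intensity + 16), a scale that understates changes of dim probes, and are given with their standard error (SE). A change passed where the adjusted p from limma, with Benjamini-Hochberg adjustment over all genes tested, was under 0.05. Intensities up to 10.9, the noise bound, could not be told from background, and a probe was used where it exceeded this bound on at least 2 arrays of the line. The arrays had nearly equal distributions, with medians of 5.08 to 5.10, and 41.9% of probes lay above the noise bound on each. Log intensities correlated at 0.988 to 0.991 between arrays of 1 group, 0.986 to 0.990 between conditions of 1 line and 0.838 to 0.844 between lines. The labelled lines carried their markers: all 9 adipocyte markers measured were above the bound on every adipocyte array, and all 9 macrophage markers on every macrophage array. The adipocyte cultures also carried 5 of 5 fibroblast or preadipocyte markers, summing to 16330 to 17040 in the bilayer and 16590 to 17179 in the monolayer, and by limma 0 of 5 passed the bilayer test, also at an unadjusted p under 0.05. In these bulk samples a change in the share of differentiated cells and a change in RNA per cell cannot be told apart.

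In adipocytes, genes of most glycolytic steps were higher in the bilayer, by 1.58-fold to 1.67-fold for Aldoa (aldolase A), Tpi1 (triosephosphate isomerase), Gapdh (glyceraldehyde-3-phosphate dehydrogenase) and Pkm (pyruvate kinase), and by 1.99-fold to 2.14-fold for Slc2a1 (the glucose carrier GLUT1), Pfkl and Pfkp (phosphofructokinase subunits), Pgk1 (phosphoglycerate kinase) and Pgam1 (phosphoglycerate mutase). Ldha (lactate dehydrogenase A) was 1.92-fold and Eno2 (an enolase) 4.18-fold higher. Of the 30 genes with a probe, 25 passed the filter on dim probes and could be tested. Of these 16 rose, 0 fell and 9 did not pass. Over all 11037 genes tested, 5.63% rose and 5.17% fell, or 10.8% in either direction. The median difference was 0.58 over the 25 genes and -0.01 over all genes. A rise of at least 1.5-fold was fitted for 12 of the 25, against 2.40% of all genes. Gbe1 passed the filter through its bilayer arrays alone, so it had to differ. Without it 15 of 24 genes rose, 11 of them by at least 1.5-fold, and with Gbe1 at its bound the median was 0.53. The filter keeps a gene that is dim in 1 group only if it is bright in the other, so these counts describe the genes measured and not all 34. The plot of changes by line shows each estimate with its interval.

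**Figure D1:**
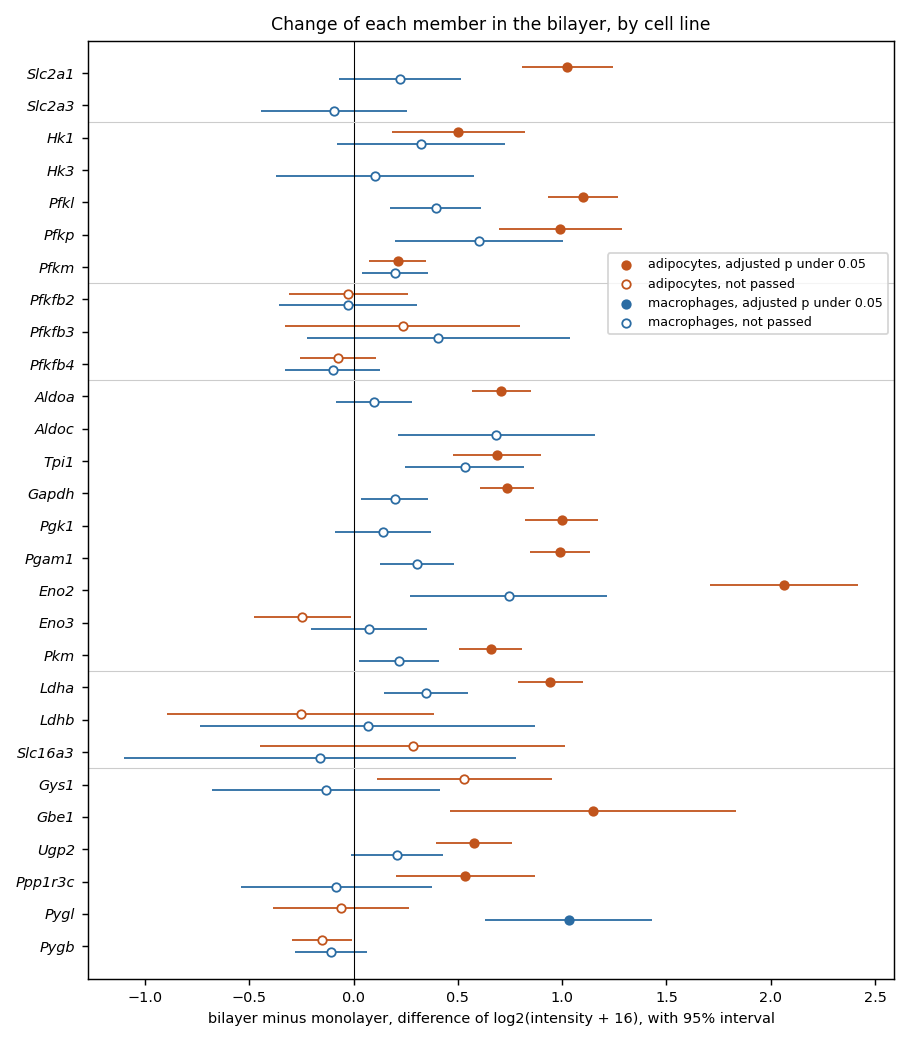
Bilayer minus monolayer difference of log2(intensity + 16) for each gene tested (x axis, with its 95% interval), in adipocytes (orange) and macrophages (blue), with genes grouped by role from glucose uptake at the top to glycogen at the bottom. Filled points passed at an adjusted p under 0.05: 16 in adipocytes, all to the right of 0, and 1 in macrophages, Pygl. The Gbe1 point is a fitted value against a monolayer below the noise bound and does not measure a size.

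Of the glucose carriers, Slc2a1 had intensities of 3815, 3538 and 3486 in bilayer adipocytes, against 1411, 1797 and 2169.6 in monolayer adipocytes. All bilayer arrays lay above all monolayer arrays, and the difference was 1.03 (SE 0.10, adjusted p = 3.02e-06), or 2.03-fold. Slc2a3, which encodes the high-affinity carrier GLUT3, was not above the noise bound on any adipocyte array and was not tested in that line.

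Among the genes of hexose phosphorylation and phosphofructokinase, 4 of 4 tested rose. Pfkl, the liver-type subunit, had intensities of 7200.4, 8602 and 7240.4 in bilayer adipocytes and 3366, 3355 and 4015 in monolayer adipocytes. The groups were far apart, with a difference of 1.10 (SE 0.08, adjusted p = 5.9e-08). For Pfkp, the platelet-type subunit, the bilayer arrays read 388, 635 and 602, against 235, 251 and 293 in the monolayer. The lowest bilayer value was still above the highest monolayer value, and the difference was 0.99 (SE 0.14, adjusted p = 1.24e-04). Pfkm, the muscle-type subunit, was the least changed of the 3, at 2527 ± 93 in the bilayer and 2183 ± 114 in the monolayer (SD, n = 3 each), a difference of 0.21 (SE 0.06, limma adjusted p = 0.0436). Hk1, a hexokinase that traps glucose as glucose-6-phosphate, had a mean of 102 ± 15 in the bilayer and 67.8 ± 15.4 in the monolayer (SD, n = 3 each), a difference of 0.50 (SE 0.15, limma adjusted p = 0.0405). The Hk1 and Pfkm calls were narrow. Without monolayer adipocyte array 2 or 3, or bilayer array 1 or 3, the adjusted p of Hk1 was 0.0726 to 0.176, and Pfkm stayed past the threshold only without monolayer array 3 or bilayer array 1, with an adjusted p of up to 0.165 otherwise. Hk3, a hexokinase of blood cells, was at or below the noise bound on all adipocyte arrays.

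The PFKFB genes encode bifunctional enzymes that make and remove fructose-2,6-bisphosphate, the activator of phosphofructokinase. By limma 0 of the 3 tested passed in adipocytes, also at an unadjusted p under 0.05. Pfkfb4 averaged 765 ± 60 in the bilayer and 805 ± 40 in the monolayer (SD, n = 3 each), a difference of -0.07 with a 95% interval of -0.26 to 0.11. For Pfkfb2 the difference was -0.02 (interval -0.31 to 0.26). Pfkfb3, whose product is known as the form induced by hypoxia and inflammatory stimuli, was close to the noise bound, at 9.12, 16.7 and 23.1 in the bilayer and 13.8, 7.30 and 12.2 in the monolayer, so its interval of -0.33 to 0.80 is wide.

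Of the genes from aldolase to pyruvate kinase, 7 of 8 tested rose in adipocytes. Eno2, an enolase best known from neurons, changed most: its intensities were 377, 352 and 242 in the bilayer and 47.5, 70.1 and 77.6 in the monolayer. Every bilayer array was at least 3 times the highest monolayer array, and the difference was 2.06 (SE 0.17, adjusted p = 2.68e-07), or 4.18-fold. Pgam1 had intensities of 2474, 2791 and 2743 in the bilayer, against 1293, 1294 and 1418 in the monolayer. These groups were tight and well apart, with a difference of 0.99 (SE 0.07, adjusted p = 3.12e-08), the smallest adjusted p of the 25 genes in this comparison. Pgk1, which makes the first ATP of the pathway, read 9479.8, 10209 and 8288 in the bilayer and 4216, 4788 and 4955 in the monolayer. No array of one group fell among those of the other, and the difference was 1.00 (SE 0.08, adjusted p = 3.4e-07).

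The remaining enzymes of this stretch were bright in both groups. Gapdh had intensities of 19478, 18942 and 18619 in bilayer adipocytes and 11027, 10747 and 12528 in monolayer adipocytes. The bilayer values lay within a narrow band above the others, a difference of 0.74 (SE 0.06, adjusted p = 4.05e-07). Gapdh is often used to normalise other transcripts, and its level differed between these conditions. Aldoa stood at 18268, 15662 and 17044 in the bilayer, against 10419.8, 9694 and 11045 in the monolayer. Again the groups did not overlap, with a difference of 0.71 (SE 0.07, adjusted p = 1.78e-06).

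Tpi1 read 21574, 19895 and 18625 in the bilayer and 13227, 9924 and 14511 in the monolayer. The monolayer arrays scattered more than the bilayer arrays but all lay below them, and the difference was 0.69 (SE 0.10, adjusted p = 1.58e-04). For Pkm, the last step to pyruvate, the bilayer arrays gave 9372, 10088 and 8238 and the monolayer arrays 5521, 5815 and 6169. The difference was 0.66 (SE 0.07, adjusted p = 6.9e-06), with no overlap. Eno3, the muscle-type enolase, did not pass: it averaged 123 ± 14 in the bilayer and 149 ± 8 in the monolayer (SD, n = 3 each), a difference of -0.25 (limma adjusted p = 0.174) with all bilayer arrays below all monolayer arrays. Aldoc and Pgam2, isoforms best known from brain and muscle, were too dim to be tested in adipocytes.

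Ldha, the subunit of lactate dehydrogenase that predominates where pyruvate is turned to lactate, had intensities of 21388, 21053 and 20178 in bilayer adipocytes, against 9859.7, 10574 and 12236 in monolayer adipocytes. The bilayer arrays were nearly equal and all well above the others, with a difference of 0.94 (SE 0.07, adjusted p = 1.62e-07), or 1.92-fold. Ldhb, the heart-type subunit, was dim in both groups, and its difference of -0.25 had an interval of -0.90 to 0.39. Slc16a3, which encodes the lactate exporter MCT4, read 36.8, 2.31 and 16.9 in the bilayer and 24.2, 3.6 and 6.39 in the monolayer. These groups overlapped and part of the arrays lay within the noise, and the difference of 0.28 had a wide interval, -0.45 to 1.01. Slc16a1, for the carrier MCT1, was above the noise bound on 1 adipocyte array and was not tested.

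Of the 6 glycogen genes, Ugp2 and Ppp1r3c rose in adipocytes, and Gbe1 also passed but had entered the test through its bilayer arrays alone. Ugp2, which makes the UDP-glucose that glycogen synthase uses, averaged 756 ± 53 in the bilayer and 502 ± 42 in the monolayer (SD, n = 3 each), a difference of 0.58 (SE 0.09, limma adjusted p = 2.16e-04). Ppp1r3c, a subunit that brings protein phosphatase 1 to glycogen, had intensities of 5798, 4386 and 3638 in the bilayer and 3078, 3242 and 3037 in the monolayer. Its bilayer arrays were widely spread above a tight monolayer group, and the difference of 0.53 (SE 0.16, adjusted p = 0.0374) was 0.36 with an adjusted p of 0.186 without bilayer array 1. Leaving out bilayer array 2 or any monolayer array also ended that call, at 0.0958 to 0.123.

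Gbe1, the glycogen branching enzyme, read 22.5, 37.7 and 6.89 in bilayer adipocytes and 0.960, -0.242 and -5.05 in monolayer adipocytes. The monolayer was not above the noise bound on any array and the bilayer on 2 of 3, so the rise is given as at least 1.34-fold. The filter kept Gbe1 only because of its bilayer arrays, so it had to differ, and its size is given without a p-value. The Gbe1 call was also lost without bilayer array 1 or 2, and without any 1 of the monolayer arrays. Gys1, the muscle-type glycogen synthase, had a difference of 0.53 with an adjusted p of 0.100 and groups that did not overlap. Neither phosphorylase passed: the difference was -0.06 (interval -0.38 to 0.26) for Pygl and -0.15 (interval -0.30 to -0.01, adjusted p = 0.178) for Pygb.

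**Figure D2:**
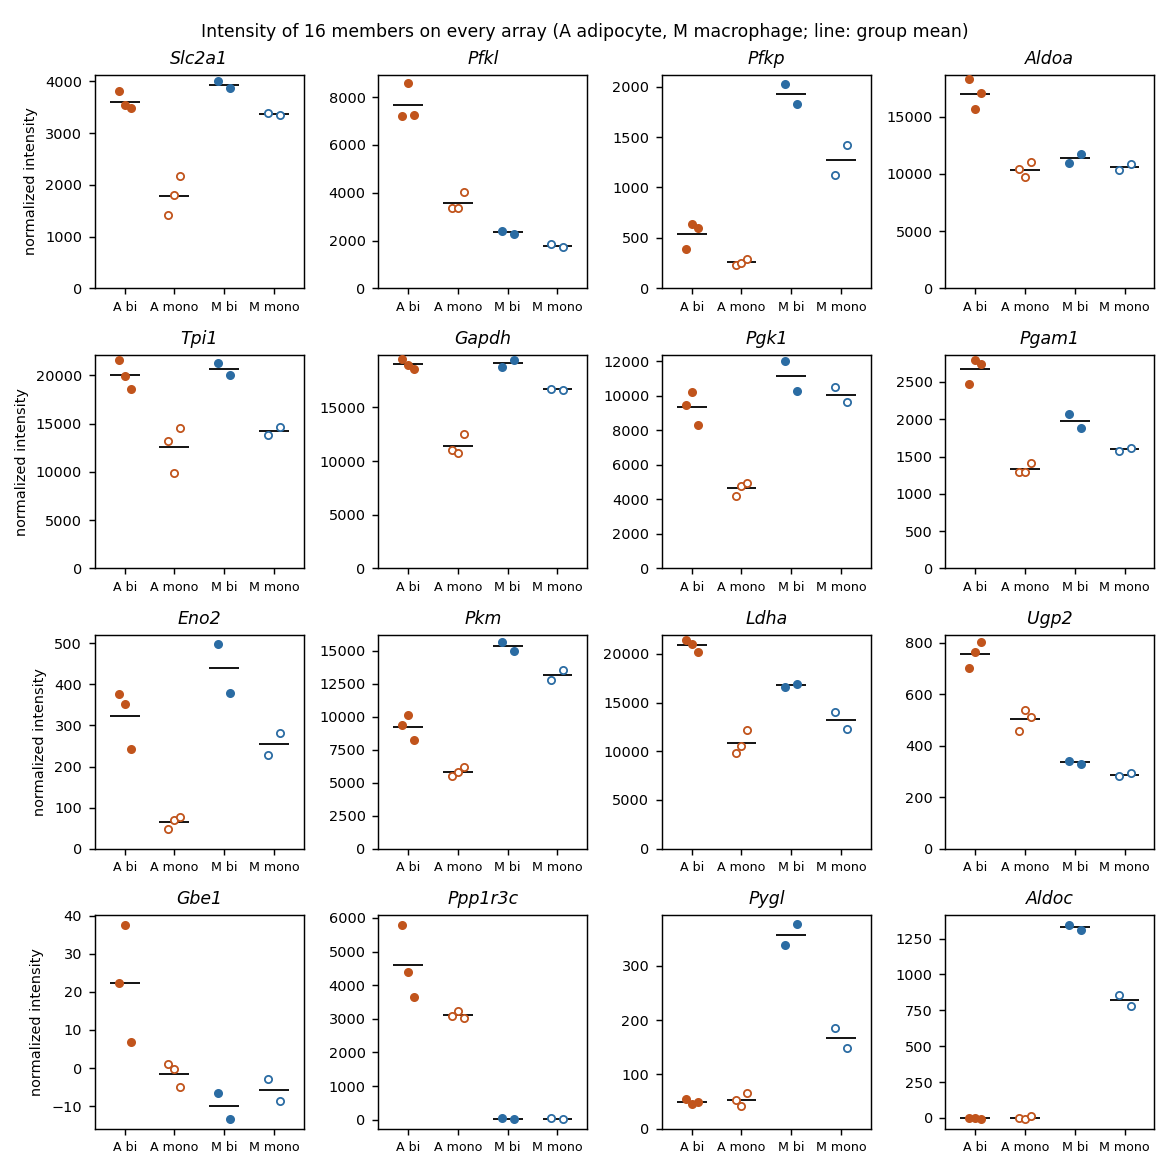
Normalized intensity (y axis, linear) of 16 genes on every array, by group: A bi and A mono are bilayer and monolayer adipocytes, M bi and M mono bilayer and monolayer macrophages, and a line marks each group mean. For Slc2a1, Pfkl, Pgk1, Pgam1, Gapdh and Ldha the 3 bilayer adipocyte arrays stand clear of the 3 monolayer arrays, while Pygl is flat in adipocytes and higher in bilayer macrophages.

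Without overlap between the adipocyte groups, 17 of the 25 genes were higher and 2 lower in the bilayer, while 6 overlapped. The 17 include Gbe1, which the filter kept through its bilayer arrays alone. Over all genes tested, 13.9% were higher and 14.8% lower without overlap. Macrophage RNA in the adipocyte samples was measured by the 9 macrophage markers. On the adipocyte arrays they summed to 286 to 355 in the bilayer and 243 to 277 in the monolayer, against 67389 to 69574 in bilayer and 66432 to 67318 in monolayer macrophages. Cd14 alone was above the noise bound on all adipocyte arrays, and it rose by 0.26 (adjusted p = 0.0455). Lyz2, Laptm5, Ptprc and Adgre1 averaged under 5 in both adipocyte groups. The part of this signal in the changes was not tested. By limma 0 of the 9 adipocyte markers passed in adipocytes, and 2 were lower at an unadjusted p under 0.05.

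Where a gene had several probes above the bound, they were fitted separately over 17470 probes. Of 11 such genes in adipocytes, 9 had all probes of 1 sign. Second probes of Pfkl (0.86), Pfkp (0.87) and Pgam1 (1.02) passed in the same direction as the first (limma adjusted p = 0.00150, 1.19e-04 and 3.27e-06). Of the 3 probes of Tpi1, a second gave 0.64 (adjusted p = 4.83e-06) and the other 0.16, which did not pass. Of the 3 of Pgk1, a second gave 0.94 (adjusted p = 0.00143), whereas the other gave -0.01 and did not pass. For Pygl the probes disagreed: the one that stood for the gene was flat, at -0.06, and the second read 11.8, 7.53 and 34.2 in the bilayer and 45.5, 37.9 and 38.2 in the monolayer, a difference of -0.82 (adjusted p = 0.0447). By limma 0 of the 3 probes of Pfkm passed in this fit, and the one that stood for the gene had an adjusted p of 0.0513 (unadjusted p = 0.00450). The probes of Gys1 gave 0.53 and 0.49, those of Pfkfb2 -0.02 and -0.52 and those of Pfkfb4 -0.07 and 0.49, and none of these 6 passed. Both Gbe1 probes were below the noise bound on every monolayer array and entered the fit through bilayer arrays alone. The first passed, and the second, above the bound on all 3 bilayer arrays, did not.

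**Figure D3:**
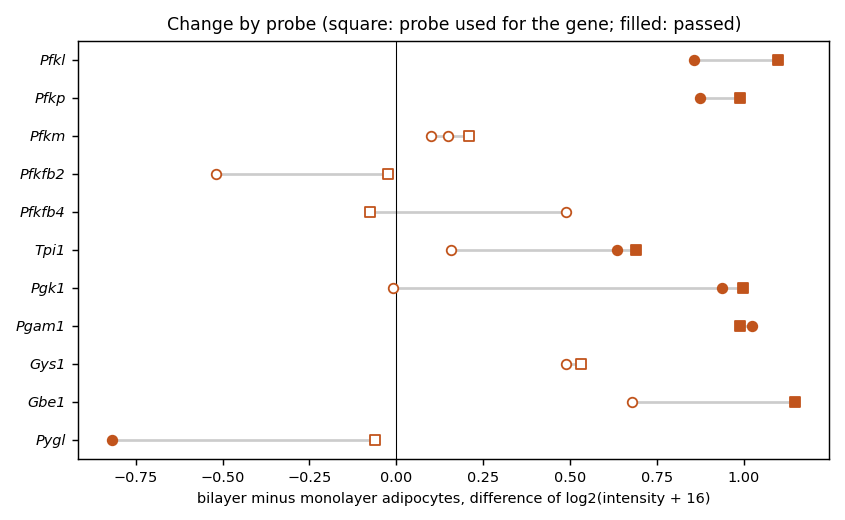
Bilayer minus monolayer difference of log2(intensity + 16) in adipocytes (x axis) for every tested probe of the 11 genes with more than 1, with a square for the probe that stood for the gene and filled symbols for adjusted p under 0.05 in the fit over probes. The probes of Pfkl, Pfkp and Pgam1 lie close together, whereas Pgk1 has a probe at -0.01 and Pygl one at -0.82. The Gbe1 points are set against a monolayer below the noise bound.

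In macrophages 1 of the 27 genes tested passed. That gene was Pygl, the liver-type glycogen phosphorylase, which releases glucose units from glycogen. Pygl had intensities of 338 and 377 in bilayer macrophages, against 186 and 149 in monolayer macrophages. Both bilayer arrays were well above both monolayer arrays, and the difference was 1.03 (SE 0.19, adjusted p = 0.0226), or 2.04-fold. Its second probe, at 98.5 and 98.6 in the bilayer and 40.9 and 57.8 in the monolayer, gave 0.82 (adjusted p = 0.349). Over all 10326 genes tested 0.494% rose and 0.174% fell, or 0.668% in either direction. The Pygl call was lost without any 1 of the macrophage arrays: the adjusted p was 0.0755 and 0.252 without monolayer arrays 1 and 2, and 0.177 and 0.233 without bilayer arrays 1 and 2.

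Of the other 26 genes none passed, and 11 of the 27 were higher at an unadjusted p under 0.05, where all genes gave 5.84%. The median difference over the 27 was 0.20, and 0.00 over all genes tested. The bilayer arrays were above the monolayer arrays without overlap for 17 and below for 2, against 22.4% and 21.2% of all genes. The 17 include Pfkfb3, which the filter kept through its bilayer arrays alone. Slc2a1 had 4005 and 3869 in bilayer macrophages and 3386 and 3357 in monolayer macrophages, a difference of 0.22 (adjusted p = 0.619, interval -0.07 to 0.51). Ldha had 16613 and 16915 in the bilayer and 14075 and 12328 in the monolayer, a difference of 0.35 (adjusted p = 0.156, interval 0.15 to 0.55). Both genes were thus higher on both bilayer arrays without passing. Eno2, at 498 and 380.0 in the bilayer and 229 and 281 in the monolayer, differed by 0.74 (adjusted p = 0.206). Aldoc, too dim to be tested in adipocytes, had 1346 and 1309.5 in the bilayer and 858 and 783 in the monolayer, a difference of 0.68 (adjusted p = 0.248). The remaining differences ran from -0.16 for Slc16a3 to 0.60 for Pfkp, and Gbe1, Pgam2 and Slc16a1 were too dim to be tested.

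The spread of each gene is pooled over both lines in these values. Fitted on the 4 macrophage arrays alone, 7 genes passed and all were higher in the bilayer: Aldoc and Pygl (limma adjusted p = 8.41e-05 each), Tpi1 (3.10e-04), Pfkp (0.00157), Eno2 (0.00292), Pfkl (0.00778) and Ldha (0.0210). The number of all genes that passed was 155 in that fit, against 69 with all arrays. Of 11 genes with several probes tested in macrophages, 6 had all probes of 1 sign. Fitted by probe on all arrays, the second Pfkl probe gave -0.12, against 0.39 for the one used. The other Tpi1 probes gave 0.27 and 0.16, against 0.53 for the one used. Hk1, Pkm and Pgk1 each had a probe below 0, at -0.31, -1.14 and -0.28, and the Gys1 probes gave -0.13 and 0.36. None of these probes passed. Adipocyte markers on the macrophage arrays summed to 3420 to 4067 in the bilayer and 4615 to 4624 in the monolayer, nearly all of it Lpl, a lipase that macrophages also make. Of the 3 that could be tested, Adipoq, the adiponectin gene, was called lower in the bilayer. It had passed the filter through its monolayer arrays alone, so it had to differ. Its means were 3.01 in bilayer macrophages, below the noise bound, and 15.5 in monolayer macrophages.

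**Figure D4:**
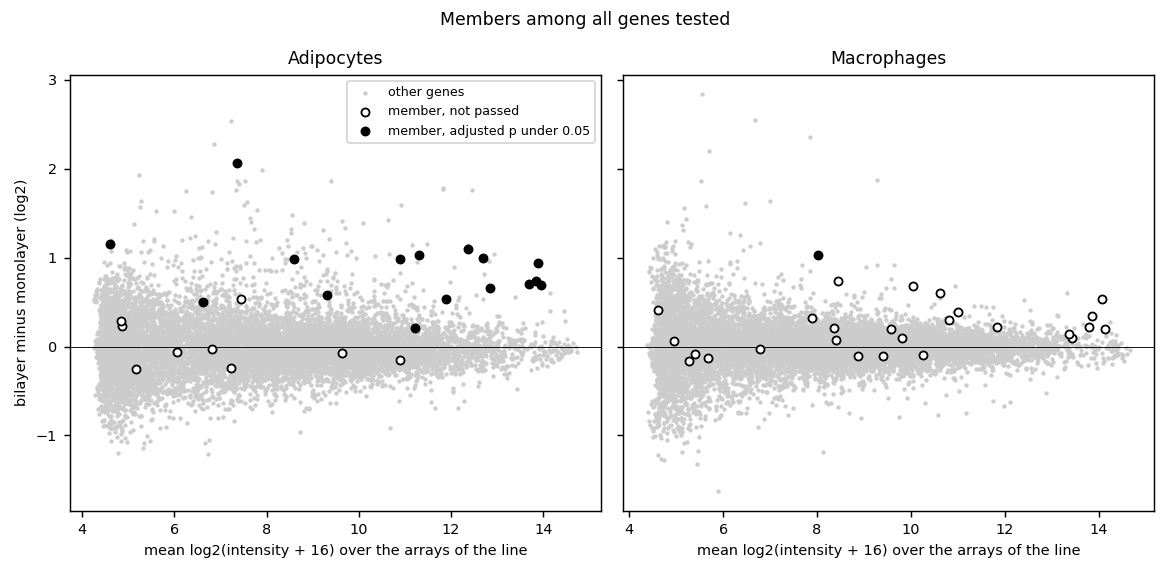
Bilayer minus monolayer difference (y axis, log2) against mean log2(intensity + 16) over the arrays of the line (x axis) for all genes tested (grey) and the glycolysis and glycogen genes (circles, filled at an adjusted p under 0.05), in adipocytes (left) and macrophages (right). In adipocytes most of the filled points at the right stand between 0.66 and 1.10, toward the upper edge of the cloud, and in macrophages most circles lie just above 0.

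Whether the lines responded differently was tested as the adipocyte minus the macrophage change. Of 28 genes tested, 8 responded more in adipocytes and 1, Pygl, more in macrophages, while 19 did not pass. Over all 12324 genes tested, 1.51% passed in the first direction and 1.05% in the second, or 2.56% in either. The median difference of responses was 0.41 over the 28 genes and -0.02 over all genes. Without an intensity trend all 9 calls were lost (limma adjusted p of 0.0687 to 0.155), and without the filter on dim probes all but the Pgam1 call were lost (0.0725 to 0.183). With a pseudocount of 1 the calls of Slc2a1 (0.0743), Eno2 (0.0627) and Pygl (0.0919) were lost. The 2 changes share no arrays, and each is set out here with its own value.

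For Eno2 the change was 2.06 in adipocytes and 0.74 in macrophages, a difference of 1.32 (SE 0.28, adjusted p = 0.0243). Pgk1 changed by 1.00 in adipocytes and 0.14 in macrophages, where the bilayer arrays read 11988 and 10265 and the monolayer arrays 10518 and 9611. Its macrophage groups thus overlapped, and the responses differed by 0.86 (SE 0.14, adjusted p = 0.00500). Its other probes gave 0.66 (limma adjusted p = 0.224) and 0.27 (0.819) and did not pass. The Slc2a1 responses, 1.03 and 0.22, differed by 0.80 (SE 0.17, adjusted p = 0.0262). Pfkl read 2401 and 2286 in bilayer macrophages and 1835 and 1725 in monolayer macrophages. Its responses of 1.10 in adipocytes and 0.39 in macrophages differed by 0.70 (SE 0.13, adjusted p = 0.0111), and its second probe gave 0.97 (adjusted p = 0.0466).

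Pgam1 read 2065 and 1887 in bilayer macrophages and 1572 and 1619 in monolayer macrophages, and its responses differed by 0.69 (SE 0.11, adjusted p = 0.00430). Its second probe gave 0.62 (limma adjusted p = 0.0821) and did not pass. Aldoa, at 10969 and 11741 in bilayer and 10336 and 10880.0 in monolayer macrophages, changed by 0.10 there (interval -0.08 to 0.28), and the difference of responses was 0.61 (SE 0.11, adjusted p = 0.00829). For Ldha it was 0.60 (SE 0.12, adjusted p = 0.0164). Gapdh had 18808 and 19429 in bilayer and 16704 and 16664 in monolayer macrophages, a smaller rise than in adipocytes by 0.54 (SE 0.10, adjusted p = 0.00884). Pygl went the other way, at -1.09 (SE 0.24, adjusted p = 0.0262), and both of its probes passed in that direction.

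Genes that rose in adipocytes but whose responses did not differ past the threshold were Hk1, Pfkp, Pfkm, Tpi1, Pkm, Gbe1, Ugp2 and Ppp1r3c. For Pkm the difference of responses was 0.44 (adjusted p = 0.0583) and for Pfkp 0.39 (adjusted p = 0.457). Tpi1 gave 0.16 with the probe that stood for the gene (interval -0.20 to 0.52) and 0.47 with another (adjusted p = 0.0336), so its answer depends on the probe. For Pfkm the difference was 0.01 (interval -0.20 to 0.22).

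Between the lines themselves, the isoforms of several steps had opposite patterns. In the monolayer, 7 of 28 genes were higher and 14 lower in adipocytes than in macrophages, and 7 did not pass. Over all genes tested 33.0% were higher and 32.8% lower, or 65.8% in all. In the bilayer, 11 were higher and 9 lower, against 33.3% and 33.0% of all genes, or 66.3% in all. These counts include genes that the filter kept only because they were above the bound in 1 line. They are Slc2a3, Hk3 and Aldoc among the lower genes of both conditions, and Gbe1 among the higher genes of the bilayer. Centring each array on its ribosomal protein probes moved the median difference of all genes to 0.45 in the monolayer and 0.49 in the bilayer. The split was then 12 higher and 11 lower in the monolayer and 16 higher and 8 lower in the bilayer, so differences of under about 0.5 between lines depend on the scaling.

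Some genes were near background in 1 line. The filter kept Slc2a3, Hk3 and Aldoc only because of their macrophage arrays, so they had to differ, and their sizes are given without p-values. Slc2a3 averaged 8.17 in bilayer adipocytes and 1165 in bilayer macrophages, at least 43.9-fold lower in adipocytes, and at least 46.9-fold lower in the monolayer. Hk3 was at least 34.7-fold lower in the bilayer and at least 32.3-fold lower in the monolayer. Aldoc was at least 50.0-fold lower in bilayer adipocytes than in bilayer macrophages. In the monolayer, where 1 of 3 adipocyte arrays was above the bound, its difference was -5.37. Ppp1r3c ran the opposite way, at 4608 ± 1097 in bilayer adipocytes (SD, n = 3) and 25.8 ± 12.2 in bilayer macrophages (SD, n = 2), a difference of 6.79 (limma adjusted p = 1.29e-13). In the monolayer its difference was 6.18 (adjusted p = 3.73e-13). Gbe1, dim throughout, was at least 1.10-fold higher in bilayer adipocytes by a probe other than the one used within adipocytes. That probe passed the filter through the bilayer adipocyte arrays alone, so it had to differ. Pgam2 and Slc16a1 were too dim to compare.

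The phosphofructokinase subunits differed by line. Pfkl was higher in adipocytes by 1.70 in the bilayer and 1.00 in the monolayer, and Pfkm by 1.65 and 1.64. Pfkp was lower in adipocytes by a difference of -1.83 in the bilayer and -2.22 in the monolayer. The phosphorylases differed likewise: Pygb, the brain-type enzyme, was higher in adipocytes by 1.46 in the bilayer and 1.5 in the monolayer, and Pygl was lower, at -2.51 and -1.42. Gys1 (2.11 in the bilayer, 1.44 in the monolayer), Ugp2 (1.14 and 0.77) and Pfkfb4 (0.79 and 0.76) were higher in adipocytes. Pkm (-0.73 and -1.17), Hk1 (-1.17 and -1.35) and Eno3 (-1.33 and -1.01) were lower. Every one of these differences passed.

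For several glycolytic genes the difference between lines was not of the same size in both conditions, and where 0 lies depends on the scaling. Slc2a1 was not distinguishable between bilayer adipocytes and bilayer macrophages, at -0.12 (interval -0.39 to 0.14), and was lower in monolayer adipocytes than in monolayer macrophages, at -0.93 (adjusted p = 7.41e-06). Gapdh differed by -0.01 in the bilayer (interval -0.15 to 0.14) and by -0.55 in the monolayer (adjusted p = 3.28e-06). Eno2 differed by -0.43 in the bilayer (adjusted p = 0.0678) and by -1.75 in the monolayer (adjusted p = 1.3e-06). Aldoa was higher in bilayer adipocytes, at 0.58 (adjusted p = 6.1e-06), and did not differ past the threshold in the monolayer, at -0.03. Pgk1 was lower in adipocytes, at -0.26 in the bilayer (adjusted p = 0.0301) and -1.11 in the monolayer (adjusted p = 6.48e-08). The bilayer call was lost without bilayer adipocyte array 3 (-0.17, adjusted p = 0.126) or bilayer macrophage array 1 (-0.14, adjusted p = 0.330), and with a pseudocount of 1, no filter, no trend, centring on bright probes or the bilayer arrays alone (0.0544 to 0.135). Pgam1 (0.43 in the bilayer, -0.26 in the monolayer) and Ldha (0.32 and -0.28) passed in opposite directions, but with the ribosomal centring the monolayer values were 0.21 and 0.19 and did not pass, and that of Pgk1 in the bilayer was 0.25 and did not pass. The monolayer call of Ldha was also lost without monolayer macrophage array 1 (-0.18, adjusted p = 0.145), without the filter (0.0570) and without the trend (0.0508), and that of Pgam1 without monolayer macrophage array 2 (-0.23, adjusted p = 0.0571). With the ribosomal centring Gapdh was higher by 0.49 in bilayer adipocytes (adjusted p = 4.29e-05) and at -0.08 in the monolayer, which did not pass, so the condition in which the lines lay closer changed with the scaling. Slc2a1 was then 0.38 in the bilayer (adjusted p = 0.0185) and -0.46 in the monolayer (adjusted p = 0.00547). These shifts between conditions are the same contrast as the difference of responses and add no separate evidence.

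**Figure D5:**
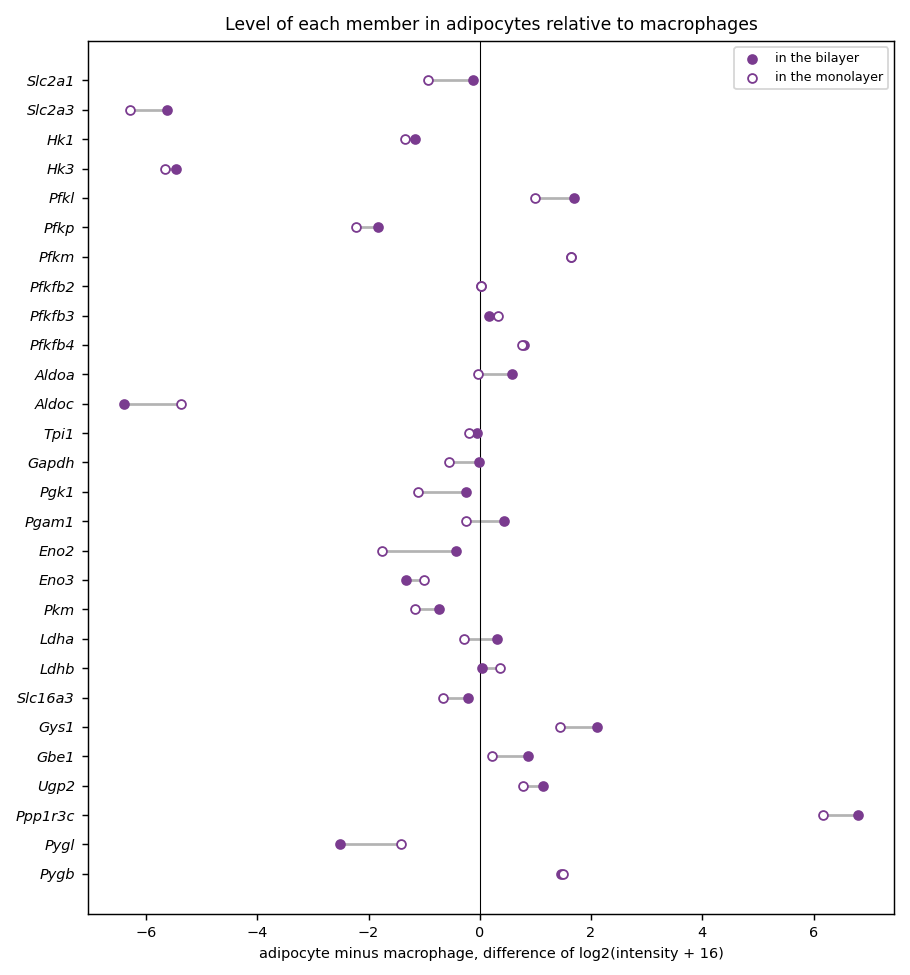
Adipocyte minus macrophage difference of log2(intensity + 16) (x axis) for each gene, in the bilayer (filled) and in the monolayer (open), joined by a grey line. Slc2a1, Pgk1, Gapdh and Eno2 lie to the right in the bilayer of their monolayer points, the place of 0 depends on the scaling, and Slc2a3, Hk3 and Aldoc on one side and Ppp1r3c on the other lie beyond 5 in size.

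The other genes of these pathways were listed by function. In adipocytes, 4 of 16 further glycogen genes and 1 of 3 further lactate genes rose, and 2 of 6 further genes of hexose use and lower glycolysis fell, against 5.63% and 5.17% of all genes. By limma 0 of 5 further glucose carriers and 0 of 4 gluconeogenic genes passed, and at an unadjusted p under 0.05 these counts were 2 and 1, all lower. Stbd1, which tethers glycogen to membranes, averaged 316 ± 22 in the bilayer and 107 ± 22 in the monolayer (SD, n = 3 each), a difference of 1.45 (SE 0.13, limma adjusted p = 1.18e-06). Ppp1r3b, another glycogen-targeting phosphatase subunit, rose by 1.33 (SE 0.19, adjusted p = 1.10e-04), and Pgm1, which links glucose-1-phosphate and glucose-6-phosphate, by 0.56 (SE 0.07, adjusted p = 3.17e-05). Adpgk, an ADP-dependent glucokinase, fell by 0.38 on the log2 scale (SE 0.10, adjusted p = 0.0167). Chosen after their values were seen, the others that passed were Gyg (0.43), the primer of glycogen, Bsg (0.90), the chaperone of lactate carriers, and Gpd1 (-0.62), which makes glycerol-3-phosphate. In macrophages 1 of 16 further glycogen genes rose, Pgm1 by 0.45 (SE 0.08, adjusted p = 0.0287), against 0.494% of all genes. There 0 of the 3 carriers, 6 genes of hexose use and 3 gluconeogenic genes tested passed, of which 0, 1 and 1 were lower at an unadjusted p under 0.05. The Stbd1 responses differed between lines by 1.20 (SE 0.21, adjusted p = 0.00884).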

How the data were processed

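RNA of 10 samples was labelled with biotin and hybridised to Illumina mouse bead arrays of 45281 probes, per the labels. The deposited normalized intensities, which are linear and already background-subtracted, were used, and between 35.49% and 35.51% of them were below 0 on each array. The authors' background and normalization methods are not given in the sources used here, and the submitters' processing notes name GenomeStudio 2011.1. A further 20 value columns could not be tied to samples and were not used, so their detection p-values and slides entered no test.

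Probes were named from the platform annotation: 34885 had 1 gene symbol, 18 several and 10378 none, and the last 2 kinds were left out. Intensities below 0 were set to 0, and log2(intensity + 16) was tested with limma 3.58.1 in R 4.3.3 (lmFit and eBayes with an intensity trend) on all 10 arrays in the 4 labelled groups, two-sided, with Benjamini-Hochberg adjustment and a threshold of 0.05. The noise bound, 10.9, was the 99th percentile of the sizes of values below 0. A probe was used if 2 or more arrays of the line were above this bound (of all 10 arrays across lines), and a gene was represented by its brightest such probe. A group with no array above the bound has only a bound, so its fold is given as at least N, on the same log2 scale, against the higher of the noise bound and the probe's own value on each array. Values after ± are SDs, and intervals are 95% intervals.

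The genes and lists were chosen with earlier results of these data known. Arrays are named by value for each gene that passed and changed at least 1.5-fold in a bilayer comparison or passed in the difference of responses, and of other pathway genes the 4 with the smallest p that passed in each line are named. Alternatives were other pseudocounts (1 and 64), filter, scaling, variance models, samples in the fit, probe rule, the replicate number as a block and leaving out each array. Arrays with the same replicate number did not deviate together (correlations of 0.0940, 0.0315 and 0.0965 in adipocytes, -0.0805 in macrophages), so the numbers were not taken as pairs. Promoters were read from RefSeq windows (GRCm38.p6) and searched with exact letters.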

Additional observations from a re-analysis of the deposited data

Results flagged for a closer look

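Responses of 9 genes differed between the lines by a test of the difference itself (adipocyte minus macrophage change, log2). The 8 that rose more in adipocytes were Eno2 (1.32), Pgk1 (0.86), Slc2a1 (0.80), Pfkl (0.70), Pgam1 (0.69), Aldoa (0.61), Ldha (0.60) and Gapdh (0.54), and the 1 that rose more in macrophages was Pygl (-1.09). Their limma adjusted p was 0.00430 to 0.0262. When each of the 10 arrays was left out in turn, the Pgk1 and Pgam1 calls held in all 10 settings, with an adjusted p of at most 0.0494 and 0.0395. Without an intensity trend all 9 calls were lost (adjusted p of 0.0687 to 0.155, with Pgam1 at 0.0687 and Pgk1 at 0.0816). Without the filter on dim probes all but Pgam1 were lost (0.0725 to 0.183), and Pgk1 was lost with the mean of its probes (0.60, adjusted p = 0.0917). Fitted by probe, the other probes of Pgk1 (0.66 and 0.27) and Pgam1 (0.62) did not pass. With a pseudocount of 1 the Slc2a1, Eno2 and Pygl calls were lost (limma adjusted p = 0.0743, 0.0627 and 0.0919). Gapdh was lost without bilayer macrophage array 1 (0.52, adjusted p = 0.0675), and Aldoa without that array (0.56, adjusted p = 0.0723) or monolayer macrophage array 2 (0.57, adjusted p = 0.0573). Pfkl and Ldha were lost without monolayer macrophage array 1 or either bilayer macrophage array, at 0.62 to 0.79 for Pfkl and 0.50 to 0.69 for Ldha over all 10 settings (adjusted p of at most 0.0776 and 0.0988). Slc2a1, Eno2 and Pygl were lost without any 1 of the 4 macrophage arrays and also without monolayer array 2 or bilayer array 1 or 2 of the adipocytes (Slc2a1) or without monolayer array 1 or bilayer array 2 of the adipocytes (Eno2 and Pygl), at 0.64 to 0.95, 1.13 to 1.51 and -1.24 to -0.95 (adjusted p of at most 0.135, 0.150 and 0.140).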

How the results depend on the processing

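The number of glycolysis and glycogen genes that passed in adipocytes was 16, and 13 to 17 under the alternatives. Without each array in turn it was 12 to 16. The calls of Hk1, Pfkm, Gbe1 and Ppp1r3c were the ones lost among them. In macrophages the count of 1 was 0 with a pseudocount of 1, without the filter or with the mean of probes, 2 with a pseudocount of 64, 7 with macrophage arrays alone, and 0 to 2 without each array in turn. For the difference of responses the count of 9 was 1 without the filter, 0 without an intensity trend, and 2 to 10 without each array in turn. It was 4 and 5 without monolayer macrophage array 1 and 2, and 2 and 4 without bilayer macrophage array 1 and 2. Between lines it was 21 in the monolayer (20 to 22 without each array) and 20 in the bilayer (19 to 21). With the replicate number as a block the 5 counts were 15, 1, 9, 21 and 19. Centring on ribosomal probes turned the monolayer line differences of Pgam1 (0.21) and Ldha (0.19) and the bilayer one of Pgk1 (0.25). Over all genes, 1192 passed in adipocytes, 603 without the filter, 604 without the trend and 692, 781 and 788 without monolayer array 1, monolayer array 2 and bilayer array 2. In macrophages 69 passed, 155 with macrophage arrays alone, and 9 to 70 without 1 array. For the difference of responses 316 passed, 106 without the filter, 80 without the trend and 97 to 318 without 1 array. The causes were not tested. The slide as a block was not run. Signals near the noise bound limit Gbe1, Slc16a3, Slc16a1, Ldhb and Pfkfb3, and cross-hybridization of probes to close gene copies was not tested.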
